A study of Mus musculus with 52 samples.

Results

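Tumours of old mice treated with an antibody against CTLA4 were compared with tumours of old mice treated with an antibody against PD-L1. The libraries were chosen by their labelled age and antibody, and 16 of the 52 libraries of the series belong here, 8 per antibody. The mice were Balb/C and more than 12 months old, and each carried a tumour of 4T1, a mouse mammary carcinoma line, grown from an injection of 100000 cells into the left 4th mammary gland's fat pad. Anti-CTLA4 was the clone 9D9 and anti-PD-L1 the clone 10F.9G2, both given into the peritoneum as 3 doses of 200 µg on days 7, 10 and 13. Tumours were collected at no more than about 150 mm3. All 16 mice therefore received tumour cells and an active antibody. The 7 old mice given the isotype antibody LTF-2 serve as the background, and young mice (8 to 10 weeks) given the same antibodies (12 libraries with anti-CTLA4, 10 with anti-PD-L1) serve for the comparison between ages. RNA was taken from whole tumours, so fewer cells of a type and less RNA per cell cannot be told apart.

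CTLA4 is a receptor that T cells raise on activation and that regulatory T cells carry constantly; it competes with CD28 for the ligands CD80 and CD86 and so restrains the priming of T cells. PD-L1, the product of Cd274, sits on tumour cells, macrophages and other cells, and engages PD-1 (Pdcd1) on T cells that have already been activated. The antibodies act on the proteins, so the messages of Ctla4 and Cd274 are readouts here and no check of the treatment.

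Total estimated counts ran from 18451932 to 46165114 over the 16 libraries, with a median of 22452212. The mean was 29012756 ± 11352336 (SD, n = 8) with anti-CTLA4 and 21723789 ± 2689557 (SD, n = 8) with anti-PD-L1, and the difference did not pass a two-sided exact permutation test over 12870 arrangements (p = 0.135, adjusted p = 0.540 over 4 library measures). The share of the 10 most counted genes was 7.61 ± 1.09% and 7.63 ± 0.927% (SD, n = 8 each), and the normalization factors and the trend with gene length were also not separated (exact permutation p from 0.573 upwards). All libraries but anti-CTLA4 replicate 8, which came from batch 3, were sequenced in batch 1. The tumours carried the epithelial genes of their label: the mean log2 CPM (counts scaled to a common library size) of 16 epithelial markers lay between 5.09 and 5.70 with anti-CTLA4 and between 4.86 and 5.59 with anti-PD-L1. Libraries of a group were not alike in their lymphoid content. Among the anti-PD-L1 libraries, replicates 6, 7 and 8 stood apart through high B cell and plasma cell markers, and replicate 1 through a set of genes described below. The labels number the libraries as biological replicates without naming the mouse, and a p-value therefore describes the spread from library to library, which may be technical.

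The first question was which genes differ between tumours under the 2 antibodies. No gene did by edgeR's quasi-likelihood test: 0 of 17899 tested genes (0%) had a p below 0.05 after Benjamini-Hochberg adjustment, and the smallest adjusted p was 0.226. At an unadjusted p under 0.05 there were 243 genes (1.36%), of which 77 (0.43%) had higher and 166 (0.927%) lower values with anti-CTLA4. DESeq2, used as an alternative, called 18 genes, 6 higher and 12 lower. In 17 of these 18, a single library held more than 50% of the CPM summed over the 16 libraries, and 10 had a mean under 1 CPM. Genes with a fitted log2 fold change above 0 numbered 7363 (41.1%) and those below 0 numbered 10536 (58.9%), with a median of -0.02 and quartiles of -0.11 and 0.05. Fold changes are given throughout as anti-CTLA4 over anti-PD-L1, on the log2 scale, with their standard errors.

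The precision of the comparison was as follows. The median standard error was 0.22, and the median half-width of the 95% confidence interval was 0.45. For 13968 genes (78.0%) the whole interval lay between -1 and 1, so a change of 2-fold in either direction fell outside it. In 380 genes the fitted value itself lay beyond 1 in size. The CPM values of the 8 and 8 libraries did not overlap in 1 gene with lower values under anti-CTLA4 (0.00559% of those tested) and in 0 genes with higher values (0%). That gene is Rnf183 (chromosome 4, 62427540 to 62435252, GRCm38), a RING finger ubiquitin ligase, named here after its values were seen. It was barely detected, at 0.181 to 0.268 CPM with anti-CTLA4 and 0.315 to 1.12 CPM with anti-PD-L1, against 0.277 to 0.772 CPM with isotype. Its log2 fold change was -1.06 ± 0.32 (SE) and its adjusted p was 1.00 by edgeR.

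Leading genes are those of smallest p that averaged 1 CPM or more and were no predicted model, pseudogene or unnamed identifier. These limits left out Gm26822, Gm27404 and Gm28320, with an adjusted p of 0.226 by edgeR and their highest value in anti-PD-L1 replicate 1. They also left out Clca1, Mrgprg and Caln1, which averaged under 1 CPM. Their log2 fold changes were 4.63, 3.47 and -3.77 in that order, each with an adjusted p of 0.429 by edgeR. The 10 leading genes with lower values under anti-CTLA4 fell into 2 sets, each led by a single anti-PD-L1 tumour. In 5 of them the highest of the 16 values belonged to anti-PD-L1 replicate 1. Grip2 (chromosome 6, 91761509 to 91827250), which encodes a scaffold protein for glutamate receptors, was measured at 0.936, 5.30 and 11.9 CPM (lowest, median and highest) with anti-CTLA4 and at 3.62, 10.3 and 706 CPM with anti-PD-L1. Its log2 fold change was -3.89 ± 0.89 (SE, adjusted p = 0.310 by edgeR). Replicate 1 gave 706 CPM and replicate 4 gave 103 CPM, and the other 6 anti-PD-L1 libraries lay at 14.7 CPM or below.

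The same pair of libraries led the other genes of this set. C2cd4c (C2 domain protein) reached 108 CPM in replicate 1 and 18.4 CPM in replicate 4, while its highest value with anti-CTLA4 was 3.19 CPM. Tnrc6b, a partner of Argonaute in silencing by microRNAs, reached 654 and 102 CPM in them against a highest value of 38.9 CPM with anti-CTLA4. For Cdh3, the P-cadherin of basal mammary epithelium, these values were 354 and 51.0 CPM against 24.5 CPM. Sarm1, an enzyme that breaks down NAD in injured axons, reached 10.1 and 1.85 CPM against 0.912 CPM. Without replicate 1 the log2 fold changes were -1.59 for Grip2, -1.43 for C2cd4c, -0.54 for Tnrc6b, -0.83 for Sarm1 and -0.23 for Cdh3. Without replicates 1 and 4, a choice made after seeing the data, Cdh3 lay at 0.29. These genes were not high in old anti-PD-L1 tumours alone. Among the 36 libraries of the other groups, Grip2 reached 322 CPM in young anti-CTLA4 replicate 6, and Tnrc6b exceeded 100 CPM in 10.

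The other 5 were variable segments of immunoglobulins, with their highest value in anti-PD-L1 replicate 8. Igkv3-4, a kappa light chain segment, ran from 0.157 to 7.98 CPM with anti-CTLA4 (median 0.499). With anti-PD-L1 its lowest and median values were 0 and 0.401 CPM, and replicates 7 and 8 reached 422 and 1566 CPM (log2 fold change -6.58 ± 1.95, SE, adjusted p = 0.900 by edgeR). Igkv12-38, Igkv1-88, Ighv2-3 and Ighv2-6 had log2 fold changes of -6.21, -3.76, -5.22 and -4.70. Replicate 8 gave 31.3, 201, 90.8 and 141 CPM of them in that order, and replicate 7 gave 0.124, 18.3, 29.99 and 41.9 CPM. The group medians were far below these values, at no more than 1.58 CPM with anti-CTLA4 and 0.744 CPM with anti-PD-L1. Without replicate 8 the log2 fold changes were -1.65 for Igkv12-38, -0.54 for Igkv1-88, -3.46 for Ighv2-3, -2.90 for Ighv2-6 and -4.63 for Igkv3-4. Immunoglobulin segments resemble each other, so the division of reads among them is uncertain.

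The 10 leading genes with higher values under anti-CTLA4 had log2 fold changes from 0.57 (Adhfe1) to 4.52 (Igkv4-79), and the 8 of them that are no immunoglobulin segments reached 1.80 (Grp). The library with the highest value held between 12.3% (Adhfe1) and 59.9% (Igkv12-46) of the CPM summed over the 16 libraries, against 55.4% (Sarm1) to 95.3% (Igkv12-38) among the 10 leading lower genes. Cd209e, a C-type lectin of the DC-SIGN family of myeloid cells, was measured at 2.76, 4.43 and 10.1 CPM (lowest, median and highest) with anti-CTLA4 and at 0.472, 1.84 and 4.25 CPM with anti-PD-L1. All 8 anti-CTLA4 libraries lay above the anti-PD-L1 median, and the ranges overlapped between 2.76 and 4.25 CPM. The log2 fold change was 1.33 ± 0.45 (SE, adjusted p = 1.00 by edgeR), and 1.10 without anti-CTLA4 replicate 3. Adhfe1, a mitochondrial alcohol dehydrogenase, was measured at 6.22, 7.22 and 13.0 CPM with anti-CTLA4 and at 4.12, 5.69 and 6.35 CPM with anti-PD-L1. Only the lowest anti-CTLA4 library fell within the anti-PD-L1 range, and the log2 fold change was 0.57 ± 0.20 (SE).

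Mast cell chymases were among the leading genes. Mcpt2 was measured at 10.6, 34.8 and 53.7 CPM with anti-CTLA4 and at 12.6, 16.9 and 25.4 CPM with anti-PD-L1. The 5 highest anti-CTLA4 libraries exceeded every anti-PD-L1 library, and the 3 lowest lay within or below their range. The log2 fold change was 0.82 ± 0.34 (SE), and 1.19 ± 0.48 (SE) for Mcpt1, a close relative whose reads may be shared with it. In isotype tumours Mcpt2 averaged 35.5 ± 16.6 CPM (SD, n = 7), near the anti-CTLA4 median.

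Gsta3 (a glutathione transferase), Car4 (a membrane carbonic anhydrase) and Serpina3c (a protease inhibitor) had log2 fold changes of 1.16 ± 0.44, 1.02 ± 0.39 and 1.14 ± 0.46 (SE). Together with Cd209e, Adhfe1 and the kappa segment Igkv4-79, they had their highest value in anti-CTLA4 replicate 3, so that 6 of the 10 leading higher genes peaked in this library. It also had the highest adipocyte marker level of the 16 libraries, 6.36, and its part in these values was not tested beyond leaving it out. Without it the log2 fold change was 0.64 for Gsta3, 0.87 for Car4 and 0.75 for Serpina3c. Grp, the precursor of gastrin-releasing peptide, reached 20.4 CPM in anti-CTLA4 replicate 4 and 2.85 CPM at most with anti-PD-L1, and its log2 fold change went from 1.80 ± 0.77 (SE) to 0.71 without that library. Of the 2 kappa segments among these 10 genes, Igkv4-79 was above 15 CPM in anti-CTLA4 replicates 1, 3 and 4 and Igkv12-46 was above 300 CPM in replicates 5 and 6.

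**Figure D1:**
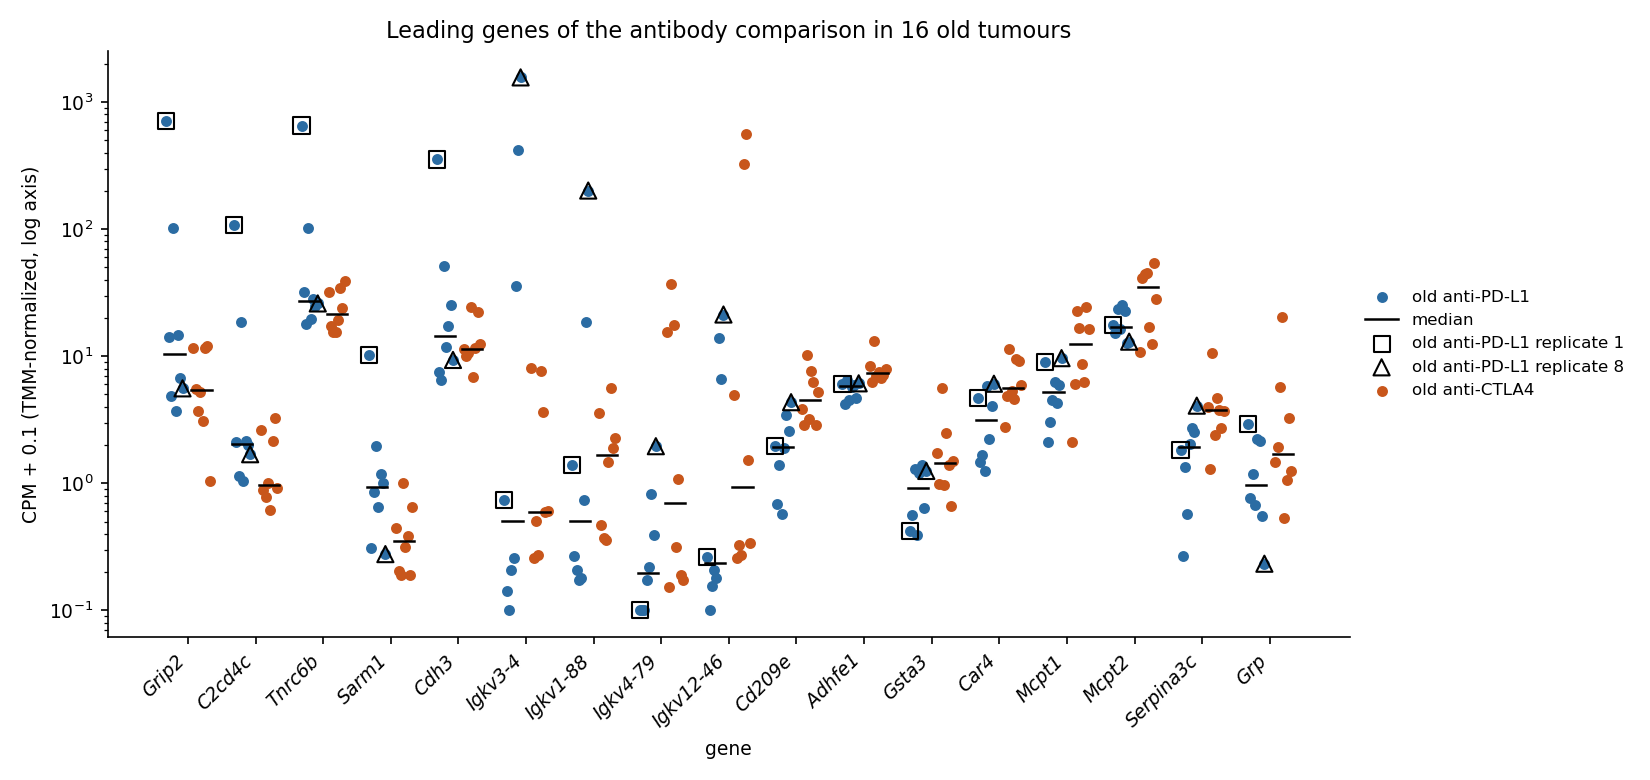
CPM + 0.1 of 17 of the 20 leading genes in the 8 old anti-PD-L1 (blue) and 8 old anti-CTLA4 (orange) libraries, on a log axis, with the median of each group as a line. For Grip2, C2cd4c, Tnrc6b, Sarm1 and Cdh3 the highest point is anti-PD-L1 replicate 1 (square), and for Igkv3-4 and Igkv1-88 it is anti-PD-L1 replicate 8 (triangle), while from Cd209e to Mcpt2 the anti-CTLA4 medians are higher and the ranges overlap.

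The wider set at an unadjusted p under 0.05 was described by the library that held each gene's highest value. A gene chosen for lower values under anti-CTLA4 nearly always peaks in an anti-PD-L1 library, so shares are given among the genes that peaked in the same group. Of the 166 genes with lower values, 161 peaked in an anti-PD-L1 library, 65 of them (40.4%) in replicate 1 and 32 (19.9%) in replicate 8. Among all 9498 tested genes that peaked in an anti-PD-L1 library, replicate 1 held 10.3% and replicate 8 held 23.1%. Replicate 1 thus had a larger share of the lower genes than of all genes, and replicate 8 did not. All 77 genes with higher values peaked in an anti-CTLA4 library, 28 of them (36.4%) in replicate 3, which held 7.62% of the 8401 genes that peaked there. These shares are a description, since the same values chose the genes. Immunoglobulin genes made up 31 of the 166 (18.7%) against 186 of all genes tested (1.04%), and 2 of the 77.

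The targets of the antibodies and their partners came next. None of the 9 genes of this list passed the test, and their median was -0.03 beside -0.02 for all genes. Ctla4 (chromosome 1, 60887000 to 60915832) was measured at 2.87, 6.99 and 10.9 CPM (lowest, median and highest) with anti-CTLA4 and at 0.815, 2.39 and 9.12 CPM with anti-PD-L1. All 8 anti-CTLA4 libraries exceeded the anti-PD-L1 median. Anti-PD-L1 replicates 1 to 5 lay below every anti-CTLA4 library, whereas replicates 6, 7 and 8, the ones with high B cell markers, lay among them at 6.46 to 9.12 CPM. Isotype tumours averaged 5.06 ± 3.40 CPM (SD, n = 7). The log2 fold change of 0.78 ± 0.42 (SE, 95% interval -0.06 to 1.63) had an unadjusted p of 0.0692 and an adjusted p of 1.00 by edgeR.

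Icos, a costimulatory receptor of activated and regulatory T cells whose gene neighbours Ctla4, had a similar pattern. Its values were 3.19, 9.04 and 14.7 CPM with anti-CTLA4 and 1.23, 4.26 and 12.2 CPM with anti-PD-L1 (log2 fold change 0.73 ± 0.42, SE). Pdcd1, which encodes PD-1, was measured at 4.49, 9.28 and 11.8 CPM and at 2.90, 7.36 and 25.6 CPM in the same order. The anti-PD-L1 values of Pdcd1 spread further to both sides, with replicates 1, 7 and 8 above all anti-CTLA4 libraries. Its log2 fold change was -0.30 ± 0.37 (SE) with all libraries and 0.01 without anti-PD-L1 replicate 7. Cd274 itself was close to equal, at 14.98, 29.3 and 36.04 CPM with anti-CTLA4 and 13.8, 28.4 and 37.6 CPM with anti-PD-L1, and its log2 fold change of -0.0030 had a 95% interval of -0.53 to 0.52. Pdcd1lg2, the second ligand of PD-1, lay at 0.54 ± 0.39 (SE).

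Of 15 genes of regulatory T cells, 12 had a log2 fold change above 0, beside 41.1% of all tested genes, with a median of 0.36, and none passed the test. Foxp3, the transcription factor that defines these cells, was measured at 1.43, 3.94 and 10.3 CPM with anti-CTLA4 and 0.254, 2.5 and 7.17 CPM with anti-PD-L1, against 1.99 ± 1.66 CPM with isotype (SD, n = 7). Its log2 fold change was 0.50 ± 0.46 (SE), and 0.17 without anti-CTLA4 replicate 6. Il2ra, the alpha chain of the IL-2 receptor, exceeded the anti-PD-L1 median of 5.52 CPM in all 8 anti-CTLA4 libraries (0.58 ± 0.34, SE). Ccr4, a chemokine receptor, and Tnfrsf4, the costimulatory receptor OX40, lay at 0.89 ± 0.45 and 0.63 ± 0.32 (SE). The mean log2 CPM of the list ran from 1.90 to 2.75 with anti-CTLA4 and from 1.10 to 2.66 with anti-PD-L1, so the anti-PD-L1 tumours reached the same upper level and went lower.

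T cells as a whole gave values that depended on the summary. Of 22 T cell identity genes, 18 had a log2 fold change below 0, beside 58.9% of all tested genes. The list median of -0.15 became 0.22 without anti-PD-L1 replicate 7 and 0.12 without replicate 8. The mean of the list level, which weights each library equally on the log scale, was 3.23 ± 0.76 with anti-CTLA4 and 2.90 ± 1.5 with anti-PD-L1 (SD, n = 8 each), the opposite order. Cd8a, of cytotoxic T cells, was measured at 3.76, 14.1 and 31.4 CPM with anti-CTLA4 and 1.63, 11.2 and 53.4 CPM with anti-PD-L1. Its log2 fold change of -0.45 ± 0.59 (SE) had a 95% interval of -1.63 to 0.74. Cd4 lay at 0.19 ± 0.56 (SE), and at -0.09 without anti-CTLA4 replicate 6.

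None of 16 cytotoxic effector genes passed the test, 7 lay above 0 and 9 below, and the median was -0.16. The list was measured with little precision, with 7 of the 16 intervals inside -1 and 1 and bounds from -2.34 to 1.32. Gzmb (granzyme B) was measured at 5.15, 9.75 and 19.4 CPM with anti-CTLA4 and 5.16, 10.1 and 26.4 CPM with anti-PD-L1 (0.05 ± 0.36, SE), and its sign changed when single libraries were left out. Gzma and Eomes lay at 0.40 ± 0.44 and -0.33 ± 0.31 (SE). Gzmm, another granzyme, lay at -1.13 ± 0.60 (SE), and at -0.61 without anti-PD-L1 replicate 8. The 11 tested natural killer cell genes had a median of -0.02, with Klrc2, an activating receptor, at -0.78 ± 0.54 (SE).

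No gene of the interferon-gamma axis passed the test either. Ifng was measured at 0.429, 1.5 and 2.02 CPM with anti-CTLA4 and 0.109, 0.993 and 2.24 CPM with anti-PD-L1 (0.21 ± 0.42, SE). Cxcl9, a T cell chemokine induced by it, was measured at 32.4, 132 and 184 CPM and 18.6, 105 and 200 CPM in the same order (0.19 ± 0.36, SE). The 18 interferon-gamma-induced genes had a median of 0.03. Among them Ido1, the enzyme that breaks down tryptophan, had the smallest p (0.90 ± 0.42, SE, unadjusted p = 0.0366, adjusted p = 1.00 by edgeR). Type I interferon-induced genes were evenly divided, 10 above and 10 below 0, and their 95% intervals lay between -0.91 and 0.90. For the 15 genes of MHC class I presentation, with H2-T23 at 0.17 ± 0.20 (SE), the intervals lay between -0.82 and 0.68.

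**Figure D2:**
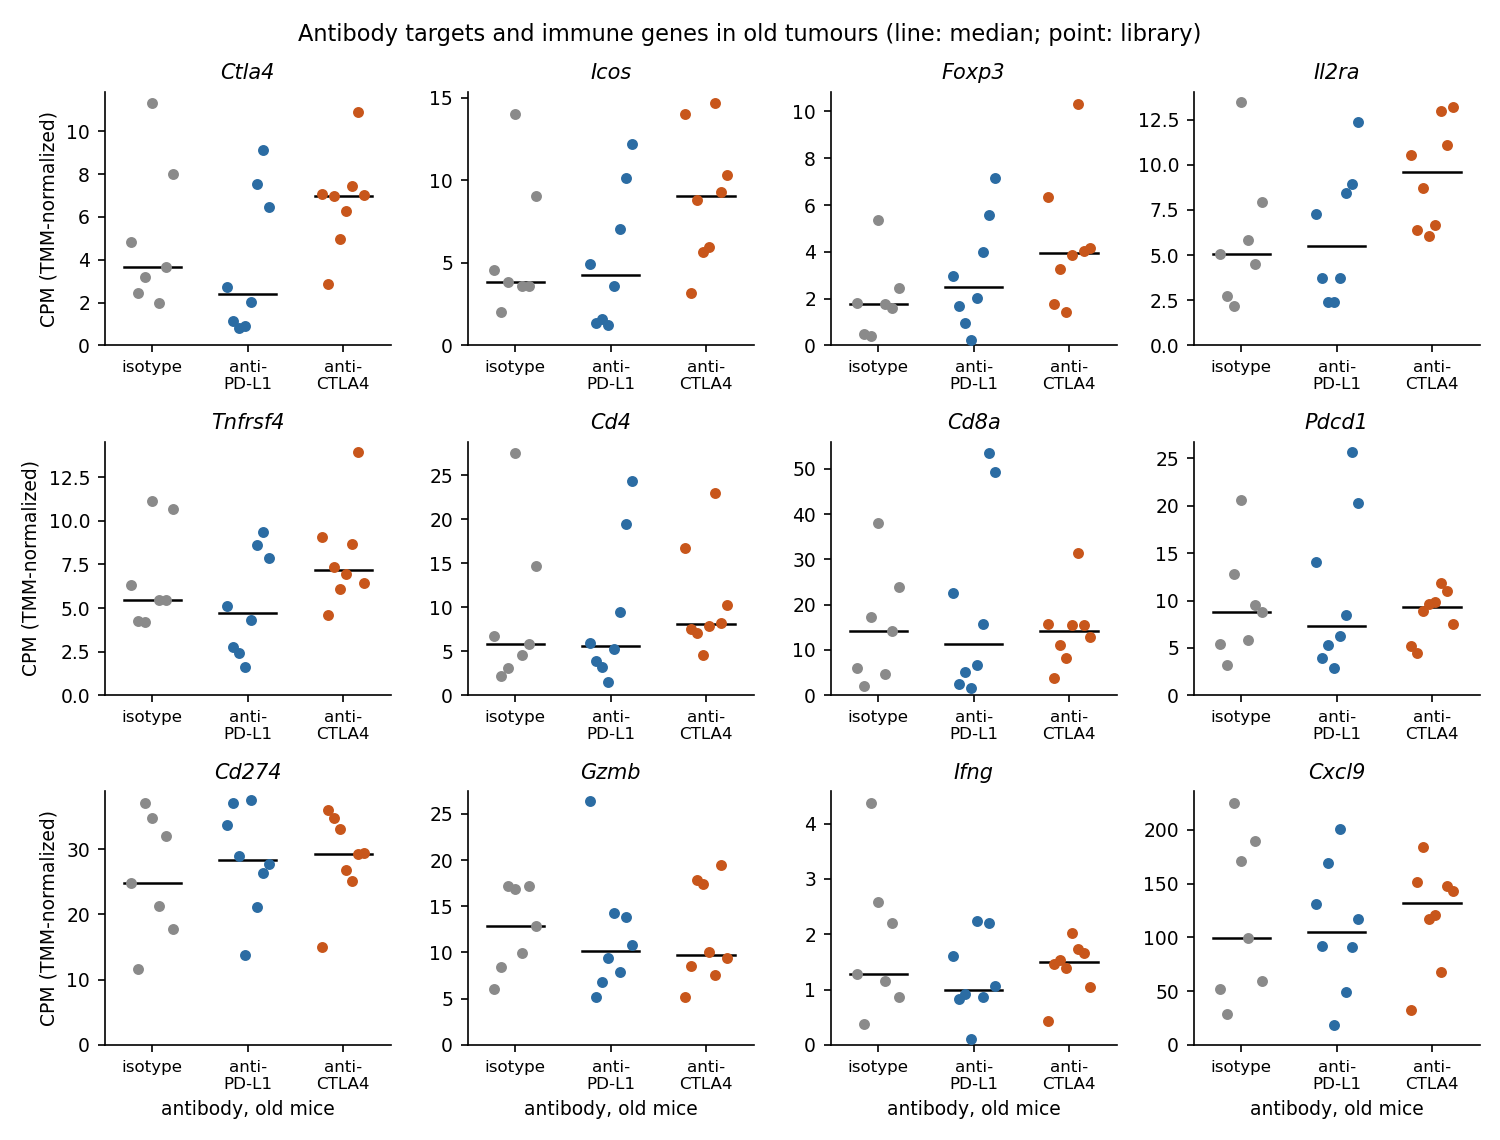
TMM-normalized CPM of 12 immune genes in each old library under isotype (grey, 7), anti-PD-L1 (blue, 8) and anti-CTLA4 (orange, 8), with the median as a line and each axis starting at 0. For Ctla4 the anti-PD-L1 points form a low set of 5 and a high set of 3. For Cd274, Gzmb and Cxcl9 the anti-PD-L1 and anti-CTLA4 ranges overlap.

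B cell and plasma cell genes varied widely among the libraries of each antibody. All 16 B cell markers had a log2 fold change below 0 (median -0.49), beside 58.9% of all tested genes, yet the mean list level was higher with anti-CTLA4, at 2.5 ± 1.68 against 1.72 ± 2.69 (SD, n = 8 each). Anti-PD-L1 replicates 6, 7 and 8 had levels from 4.15 to 5.57 and the other 5 had levels from -0.77 to 0.68. The anti-CTLA4 levels ran from 0.05 to 4.75. The median of the 16 fold changes became 0.28 without anti-PD-L1 replicate 8, -0.99 without anti-CTLA4 replicate 6, and 0.08 with the length trend as a covariate. Ebf1, a transcription factor of the B lineage, had the smallest p of the list and lay at -0.37 ± 0.39 (SE). Of 14 plasma cell genes, 12 lay below 0, beside 58.9% of all tested genes. The median was -0.54, but 0.40 without anti-PD-L1 replicate 8 and -1.49 without anti-CTLA4 replicate 6. The heavy chain gene Ighg2b led the list at -2.08 ± 1.49 (SE). Ighg2b was below 1 CPM in anti-PD-L1 replicates 1 to 5 and between 54.8 and 366 CPM in replicates 6, 7 and 8. In isotype tumours the B cell level ran from -0.09 to 5.24, which spans nearly the same range.

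Among the myeloid lists, that of eosinophils, basophils and mast cells had the highest median, 0.47. All 14 members had a log2 fold change above 0, beside 41.1% of all tested genes, and none passed the test. Cpa3, the mast cell carboxypeptidase, was measured at 10.4, 14.7 and 23.2 CPM with anti-CTLA4 and at 5.48, 10.2 and 17.5 CPM with anti-PD-L1. All 8 anti-CTLA4 libraries exceeded the anti-PD-L1 median, and the log2 fold change was 0.51 ± 0.26 (SE, unadjusted p = 0.0519). The tryptase Tpsb2 lay at 0.48 ± 0.27 (SE) and also exceeded the anti-PD-L1 median in 8 of 8. The list level ran from 1.28 to 2.07 with anti-CTLA4 and from 0.64 to 1.94 with anti-PD-L1. Isotype tumours ran from 1.01 to 3.11, which covered the anti-CTLA4 range. Anti-PD-L1 replicates 2 (0.70) and 4 (0.64) lay below every isotype tumour. Epx, the eosinophil peroxidase, had the largest fold change of the list, 1.98 ± 1.16 (SE), at 0.456 CPM or less in every one of the 16 libraries, and 0.89 without anti-CTLA4 replicate 8. Ccl11, the eosinophil-attracting chemokine eotaxin, lay at 0.45 ± 0.29 (SE), with 8 of 8 anti-CTLA4 libraries above the anti-PD-L1 median.

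Macrophage genes had a median of 0.08 over 20 genes, with 17 of the intervals inside -1 and 1. Apoe lay at 0.14 ± 0.18 (SE). Lyve1, a marker of lymphatic vessels and some tissue macrophages, lay at -0.70 ± 0.48 (SE), and at -0.11 without anti-PD-L1 replicate 8, which gave 60.2 CPM. Of 20 neutrophil genes 16 lay above 0, beside 41.1% of all tested genes. The median was 0.18, but -0.06 in batch 1 alone and -0.08 without anti-CTLA4 replicate 8. Among them G0s2, a regulator of lipolysis, lay at 0.79 ± 0.39 (SE) and Mmp9, the gelatinase, at -0.34 ± 0.36 (SE). Dendritic cell genes had a median of 0.08, and Cd209a, the mouse DC-SIGN, lay at 0.86 ± 0.43 (SE, unadjusted p = 0.0490). Fc gamma receptors, through which therapeutic antibodies engage myeloid cells, lay close together: their 9 intervals ran between -0.71 and 0.61, with Fcgr2b, the inhibitory receptor, at 0.21 ± 0.17 (SE).

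Adipocyte genes had the largest median of the 37 lists. All 15 tested members had a log2 fold change above 0 (median 0.79), beside 41.1% of all tested genes. At an unadjusted p under 0.05 there were 6 of the 15, beside 0.43% of all tested genes in this direction, and none passed after adjustment. Adipoq, the fat hormone adiponectin, was measured at 21.1, 50.8 and 98.7 CPM with anti-CTLA4 and 1.12, 29.1 and 36.6 CPM with anti-PD-L1, against 35.5 ± 25.1 CPM with isotype (SD, n = 7). In 6 of the 8 anti-CTLA4 libraries the value was above every anti-PD-L1 library, and replicates 2 and 4 of anti-CTLA4 lay within the anti-PD-L1 range. The log2 fold changes were 1.11 ± 0.49 for Adipoq, 1.03 ± 0.48 for the lipid droplet gene Cidec and 0.98 ± 0.46 for Plin1 (SE), which coats the droplets. The level of the list ran from 4.29 to 6.36 with anti-CTLA4 and from 1.88 to 5.48 with anti-PD-L1, where replicates 2 and 4 were lowest. Without those 2 libraries, left out after seeing the data, the median was 0.53. These tumours grew in a fat pad, and the sources used here do not say how much surrounding tissue was sampled with each. The part of such tissue in the other differences was not tested.

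Fibroblast genes were divided 8 and 8 around a median of 0.01. Pi16, a marker of fibroblasts around vessels and in adventitia, lay at 0.69 ± 0.35 (SE), and Dpt, the matrix protein dermatopontin, at 0.53 ± 0.34 (SE). Of 24 genes of TGF-beta signalling and matrix, 18 lay below 0 (median -0.08), beside 58.9% of all tested genes. Tgfb2, a ligand of the pathway, was below the anti-PD-L1 median of 3.67 CPM in all 8 anti-CTLA4 libraries (-0.59 ± 0.34, SE), and Thbs1, an activator of latent TGF-beta, lay at -0.43 ± 0.29 (SE). The prostaglandin synthase Ptgs2 lay at -0.37 ± 0.32 (SE). Of 13 genes of the secretory mammary epithelium, 9 lay above 0, beside 41.1% of all tested genes. The median was 0.12, but 0.47 without anti-PD-L1 replicate 4 and -0.0095 without replicate 2. The list level was highest in anti-PD-L1 replicate 4 (4.04) and anti-CTLA4 replicate 3 (3.81), and it reached no more than 1.16 in isotype tumours. The milk protein genes Csn1s2a and Wap, the 2 members at an unadjusted p under 0.05, reached 120 and 5.98 CPM in anti-PD-L1 replicate 4. Their log2 fold changes of -3.04 ± 1.36 and -3.11 ± 1.19 (SE) became 1.35 and 0.92 without it.

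Genes of general cell state had narrow intervals around 0. The 26 proliferation genes had a median of -0.03 and all their 95% intervals lay between -0.63 and 0.59. The corresponding bounds were -0.75 and 0.78 for 26 cytosolic ribosomal proteins, -0.65 and 0.69 for 26 nuclear genes of the respiratory chain, and -0.80 and 0.81 for 13 mitochondrially encoded genes. A 2-fold difference between the antibodies thus lay outside the interval of every gene of these 4 lists. Tumour epithelium genes had a median of 0.06 (Krt19 at 0.20 ± 0.28, SE) and hypoxia and glycolysis genes one of -0.08 (Hk2, hexokinase 2, at -0.29 ± 0.27, SE). Vtcn1, an inhibitory ligand of the B7 family, led the list of other checkpoints by p, at 0.63 ± 0.45 (SE), and the 14 genes had a median of -0.04.

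**Figure D3:**
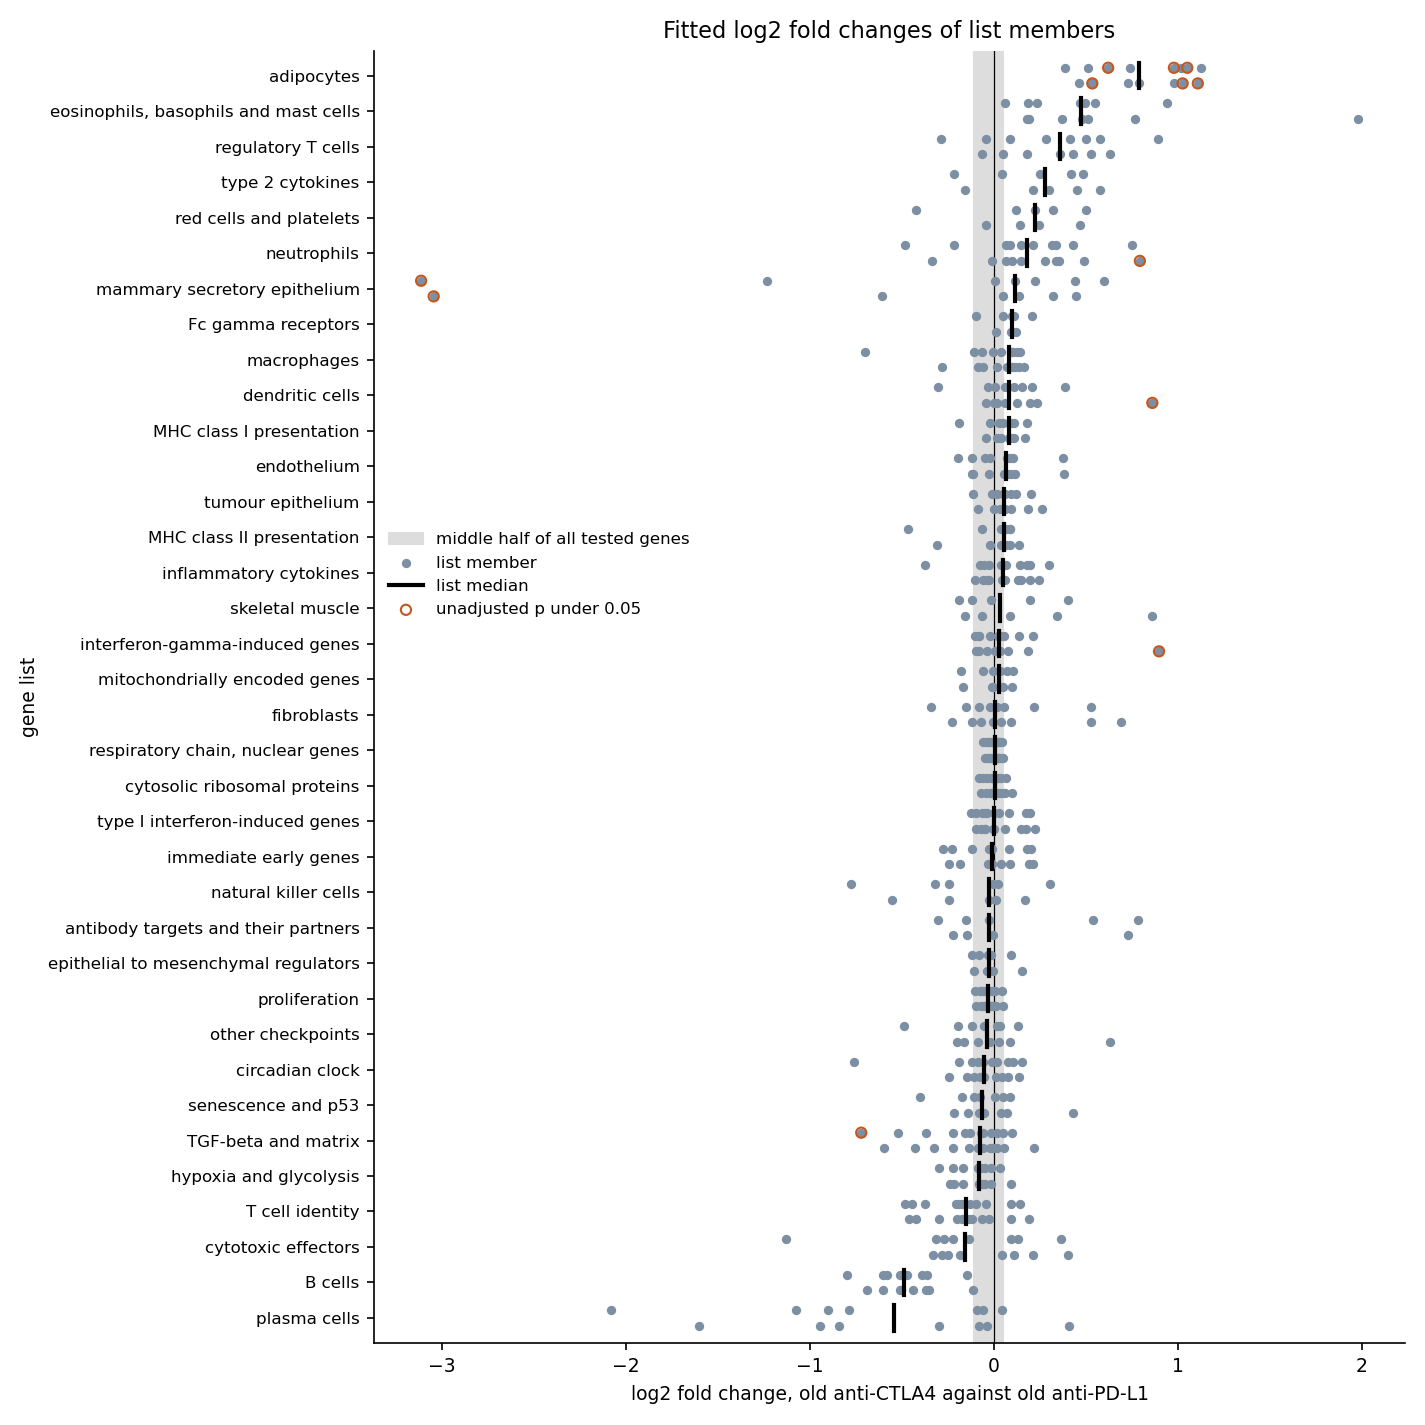
Fitted log2 fold change (anti-CTLA4 over anti-PD-L1, old mice) of each member of 36 gene lists, with list medians as black bars, the middle 50% of all tested genes shaded, and circles at unadjusted p under 0.05. Adipocytes (median 0.79) and eosinophils, basophils and mast cells (0.47) lie at the top, B cells (-0.49) and plasma cells (-0.54) at the bottom, and most lists sit on 0.

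Over all 37 lists, 24 medians lay within 0.1 of 0, 22 were above it and 15 below, and no list held a passing gene. In 13 lists the median of the fold changes and the difference of the mean list levels had opposite signs, B cells and T cells among them. The SD of the list level was larger with anti-PD-L1 in 29 of 37 lists, for example 0.58 against 0.28 for regulatory T cells and 1.23 against 0.76 for adipocytes. Lists share libraries and cell types, and this difference in spread was not tested.

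**Figure D4:**
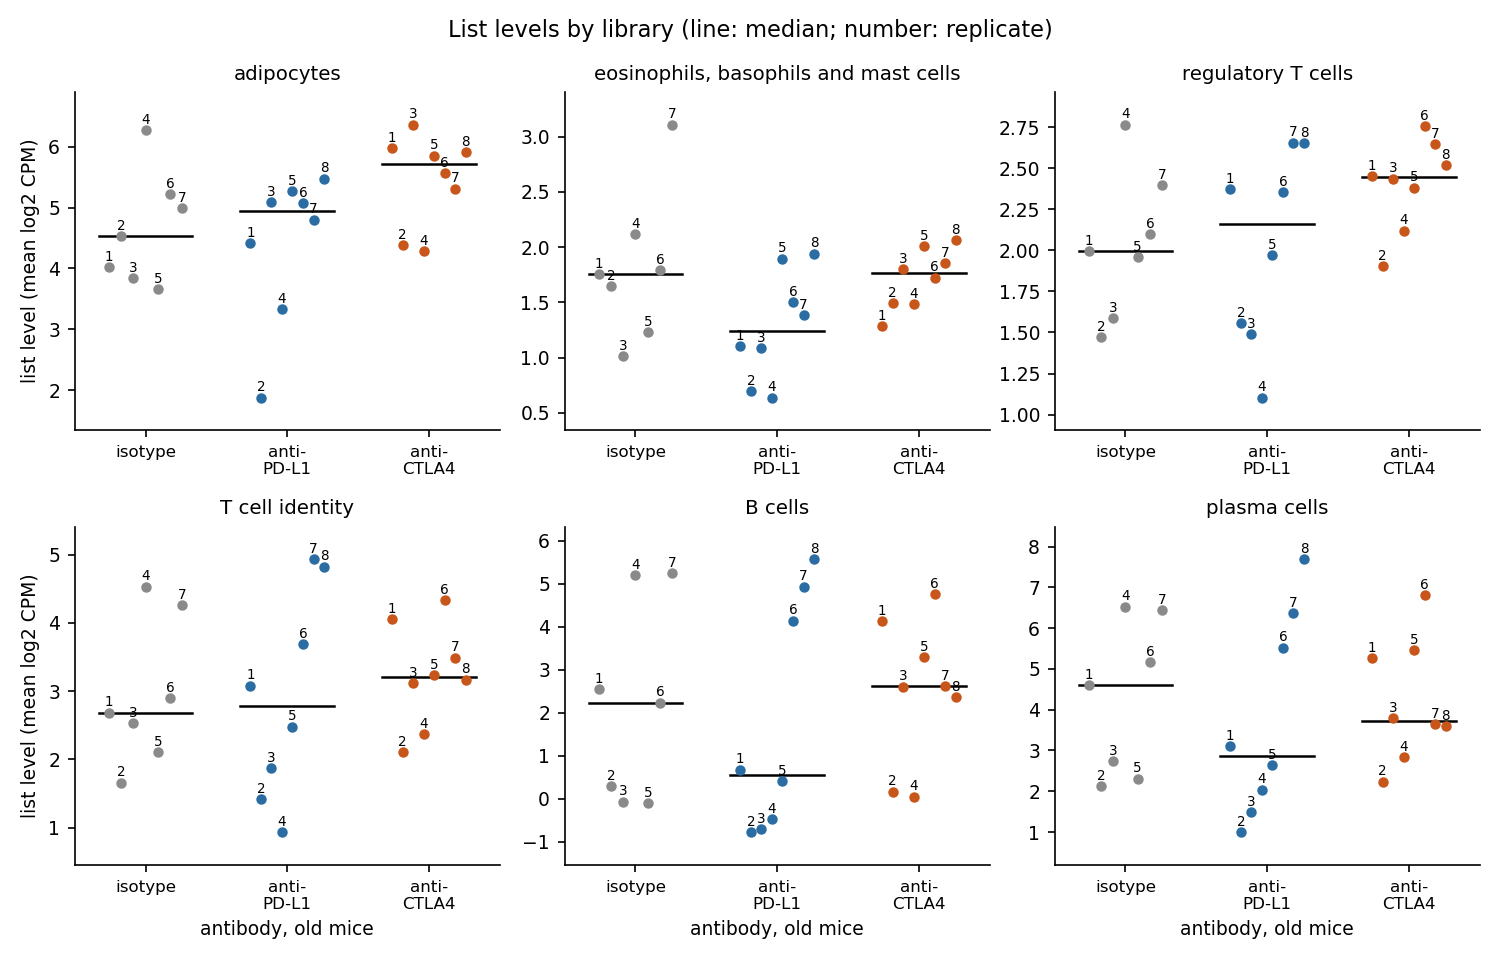
List level (mean log2 CPM of the members) of 6 cell type lists in each old library, numbered by replicate, with group medians as lines. The anti-PD-L1 libraries divide into replicates 6, 7 and 8 (B cell level 4.15 to 5.57) and the others, and replicates 2 and 4 hold their lowest adipocyte levels.

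Against isotype, the leading differences did not all point the same way. The 2 comparisons share the 7 isotype libraries, of which 4 came from batch 3, and their values are set side by side here with no correlation. Mcpt2 lay at -0.26 ± 0.38 for anti-CTLA4 and -1.08 ± 0.39 for anti-PD-L1 (SE). Cd209e lay at 0.32 ± 0.50 and -1.01 ± 0.52, and Ido1 at 0.07 ± 0.44 and -0.83 ± 0.46. For these genes the fitted anti-CTLA4 value was the one nearer to 0, and none of them passed the test against isotype. Which antibody group lay nearer to isotype was not tested. For Pi16 (0.84 ± 0.40 and 0.15 ± 0.41, SE), Foxp3 (1.21 and 0.71) and Plin1 (1.02 ± 0.51 and 0.04 ± 0.53, SE) the anti-PD-L1 value was the one nearer to 0. Ctla4 lay between, at 0.46 ± 0.47 and -0.33 ± 0.49 (SE).

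The last question was whether the difference between the antibodies depends on age. The young mice were treated alike, but 9 of the 10 young anti-PD-L1 libraries came from batch 2, while young anti-CTLA4 was spread over batches 1 (4 libraries), 2 (3) and 3 (5). None of 17899 genes (0%) passed the test of the difference between ages (edgeR, smallest adjusted p 0.986), with 332 genes (1.85%) at an unadjusted p under 0.05, and DESeq2 called 5. These were Mup18, Zfp781, Gm26527, Gm38166 and Gm44170, with DESeq2 log2 fold changes between -23.0 (Gm44170) and 19.3 (Gm26527). They averaged 1.82 CPM (Zfp781) or less over the 16 old libraries, and each had an adjusted p of 0.986 by edgeR. Some members had like values in both ages. Ctla4 lay at 0.78 ± 0.42 in old and 0.76 ± 0.47 in young mice (SE), and Cpa3 at 0.51 ± 0.26 and 0.53 ± 0.31. Mcpt2 lay at 0.82 ± 0.34 and 1.31 ± 0.38, and Rnf183 at -1.06 ± 0.32 and -1.04 ± 0.41. The difference for Ctla4 was 0.03 ± 0.64 (SE).

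Other members had values further apart. Pdcd1 lay at -0.30 in old and 1.08 in young mice, a difference of -1.39 ± 0.57 (SE, unadjusted p = 0.0194, adjusted p = 0.986). For Cxcl9 the values were 0.19 and 1.04 (difference -0.85 ± 0.53, SE) and for Gzmb 0.05 and 0.67 (-0.63 ± 0.58). Among the list medians, B cell genes had -0.49 in old and -2.07 in young mice, and plasma cell genes -0.54 and -0.95. Natural killer genes had -0.02 in old and 0.75 in young mice, and cytotoxic effectors -0.16 and 0.51. These differences of list medians were not tested. For adipocytes the medians were 0.79 and 0.06.

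Under the limits for leading genes, the 5 genes of smallest p with a lower value in old mice lay near 0 in old mice. In young mice their values were higher with anti-CTLA4 than with anti-PD-L1. For Tifab, an adaptor related to TIFA, the log2 fold changes were 0.02 ± 0.12 and 0.61 ± 0.14 (SE), and for Gna15, a G protein subunit of blood cells, -0.01 ± 0.13 and 0.62 ± 0.15. Klrb1b, an inhibitory receptor of natural killer cells, had -0.05 ± 0.30 and 1.33 ± 0.34, Tifa had 0.03 ± 0.15 and 0.69 ± 0.17, and Panx1, a channel that releases ATP, had -0.21 ± 0.18 and 0.58 ± 0.20. In the opposite direction stood Pi16 (0.69 and -1.13), the ligand Wnt5a (0.25 and -1.28) and the iron exporter Slc40a1 (-0.18 and -1.64), beside Igkv4-79 and Igkv12-46. The adjusted p of each of these 10 differences was 0.986.

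**Figure D5:**
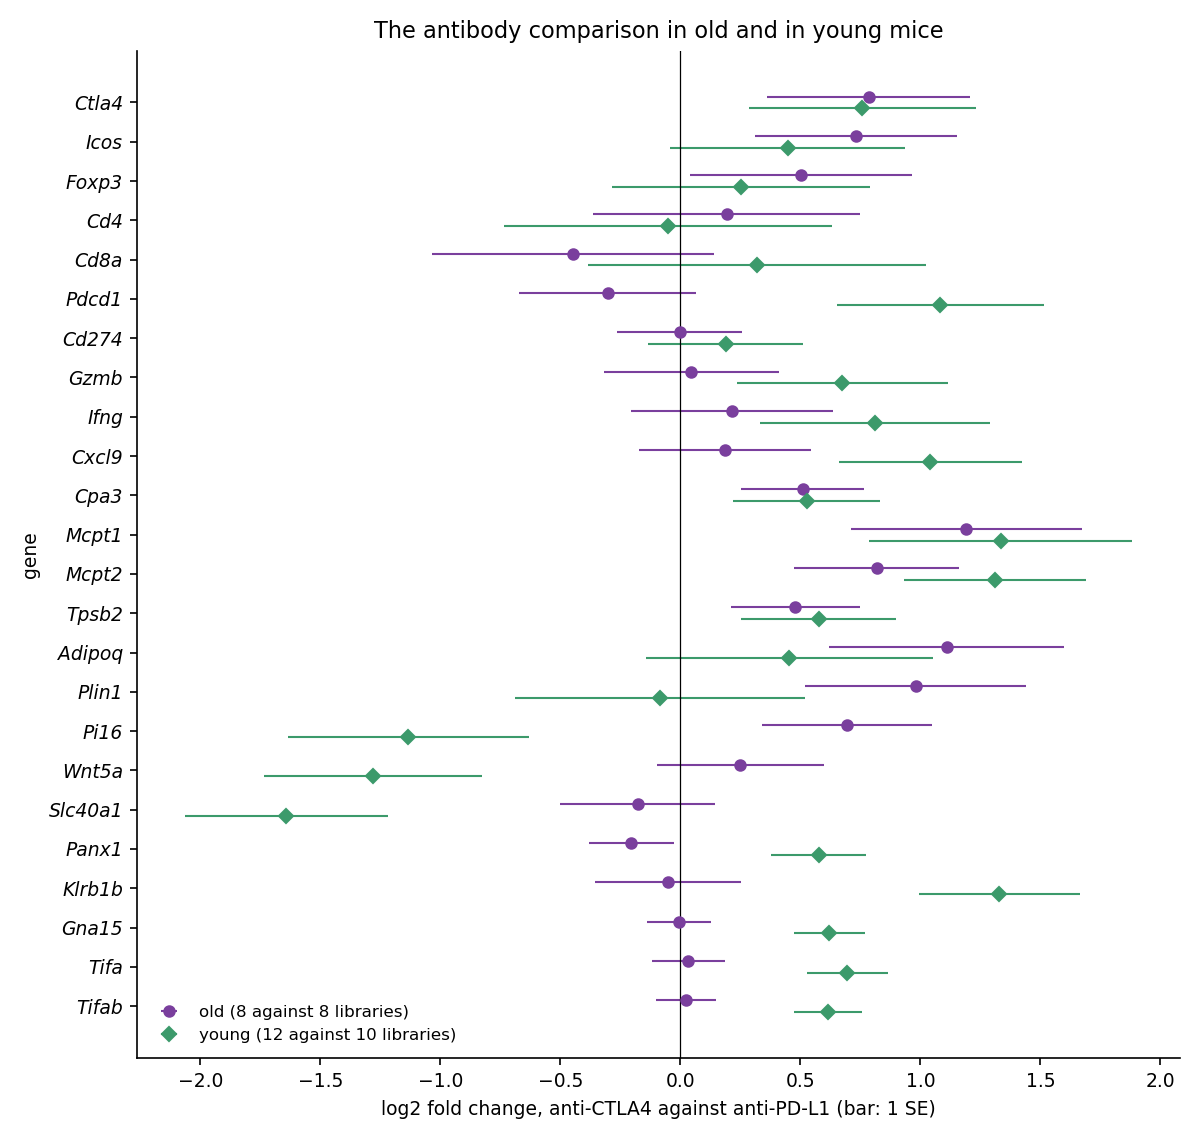
Log2 fold change of anti-CTLA4 over anti-PD-L1 with 1 SE for 24 genes in old mice (circles) and young mice (diamonds). Ctla4, Cpa3 and Mcpt1 lie at like values in both ages, whereas Pdcd1, Pi16, Klrb1b and Tifab lie apart, with no difference between ages past the adjusted threshold.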

How the data were processed

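The authors deposited whole-number estimated counts per gene and TPM values for 52 libraries of total RNA (500 ng, strand-marking poly(A) kit, paired reads of 75 bases on a NextSeq500, per the labels). Salmon, DESeq2 1.16.1 and mm10 are named in the submitters' processing notes. The sources used here do not say how transcript estimates were summed, which leaves near-identical or overlapping genes uncertain. TPM entered only the length trend. Of 47729 identifiers, 47224 matched a symbol in GENCODE M21 (GRCm38), 505 did not, and 11075 were 0 everywhere. Over 56 library pairs the chi-square per degree of freedom was 17.5 or more, above sampling noise, and no library was treated as a copy.

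The test was edgeR's (version 4.0.16, R 4.3.3) quasi-likelihood F test on the deposited counts after filterByExpr (17899 genes kept) and TMM normalization, in a model of 6 groups and the sequencing batch over 52 libraries, with Benjamini-Hochberg adjustment at 0.05. All groups entered the fit so that they share the estimate of spread and the batch terms. CPM are TMM-normalized and not per length. The level of a list averages log2 CPM (prior count 2) over its tested members. Named genes were the 10 of smallest p per direction that averaged 1 CPM or more and were no predicted model or pseudogene, a core set of 10 immune genes, up to 3 members of smallest p of 37 lists (595 genes, 14 of them not tested), and 5 per direction for the difference between ages; 74 of the 142 genes so taken are printed and the rest stand in their lists' summaries. The members and lists were chosen with earlier results of these data known. The procedure was tested on simulated counts with a known set of changed genes. The simulation held no batch effects and no outlying libraries, so it does not cover such libraries.

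Alternatives were DESeq2 1.42.0, relative log expression factors, no filter, no batch term, only the groups compared, only batch 1, the replicate number as a block, the length trend or the B cell level as a covariate, and leaving out each library; leaving out old anti-PD-L1 replicates 1 and 4, or 2 and 4, was chosen after seeing the data.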

Additional observations from a re-analysis of the deposited data

Results flagged for a closer look

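In 16 of 230 groups of 8 values (log2 CPM, list levels and library measures), the highest or lowest library lay further from its nearest neighbour than Dixon's 95% critical value of 0.526 of the range. Chance flags about 1 in 20 groups, and genes of a library are not independent.

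Old anti-CTLA4 replicate 1 was flagged most often. It was low in Cd274 (14.98 CPM, the others 25.2 to 36.04), Ifng (0.429 CPM, the others 1.06 to 2.02) and Tifa (18.3 CPM, the others 24.1 to 30.3). It was also low in the levels of neutrophil genes (0.97, the others 2.01 to 2.55) and Fc gamma receptor genes (5.98, the others 6.66 to 7.04), and high in proliferation genes (6.29, the others 5.97 to 6.03). Without this library the log2 fold change of Cd274 was 0.09. Old anti-CTLA4 replicate 3 was high in Adhfe1 (13.0 CPM, the others 6.22 to 8.33), and replicate 6 had a low level of red cell and platelet genes (1.51, the others 2.35 to 3.05).

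Old anti-PD-L1 replicate 4 was low in Ifng (0.109 CPM, the others 0.833 to 2.24), Klrb1b (2.90 CPM, the others 5.47 to 9.32) and Gna15 (6.17 CPM, the others 8.48 to 10.6), and high in Wap (5.98 CPM, the others 0.157 or less). Replicate 8 was high in Igkv12-38 (31.3 CPM, the others 1.03 or less) and in its TMM factor (1.16, the others 0.999 to 1.08). Replicate 2 was low in Dpt (19.7 CPM, the others 47.6 to 99.4) and replicate 6 in Tgfb2 (0.472 CPM, the others 1.91 to 5.18).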

How the results depend on the processing

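The count of passing genes stayed at 0 under 9 of 11 alternatives that did not leave out a single library, and under each of the 16 that did. DESeq2 called 18 genes for the old mice, Grip2 and C2cd4c among them, and 5 for the difference between ages. With the B cell level as a covariate 2 immunoglobulin segments passed in old mice, Igkv4-79 (5.60) and Igkv8-18 (-4.20). The number at an unadjusted p under 0.05 was 1098 with no filter on low counts (36654 genes tested), 169 with only the groups compared and 164 without old anti-PD-L1 replicates 1 and 4, and 180 to 343 when each library was left out. For the difference between ages it was 976 with no batch term. The replicate numbers did not pair the libraries: 3 of 8 same-numbered pairs correlated above 0.1 (range -0.20 to 0.42), and 0 correlated best with their own number. With the replicate number as a block 0 genes passed (163 at an unadjusted p under 0.05), and the sign changed for Igkv1-88 (0.42), Ighg2b (1.40), Cd8a (0.025) and Gzmb (-0.0053).

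Over all settings 16 of the 74 printed genes taken by the naming rules changed sign in at least 1 of them. Without old anti-PD-L1 replicates 1 and 4 this held for Cdh3 (0.29), Wap (0.75), Csn1s2a (1.17), Cd4 (-0.066), Tifa (-0.045) and Tifab (-0.034). Without replicates 2 and 4 it held for Wap (0.71), Csn1s2a (1.12), Cd4 (-0.11), Tifa (-0.087), Tifab (-0.0013), Cxcl9 (-0.032), Ifng (-0.060) and Gzmb (-0.13). Cd274 lay at 0.019 with no filter, 0.021 with no batch term, 0.018 with the length trend, 0.014 with the B cell level, 0.032 with only the groups compared and 0.046 in batch 1. Gna15 lay at 0.015, 0.037 and 0.054 with no filter, only the groups compared and batch 1, and Klrb1b at 0.0061 and 0.019 in the last 2. When each library was left out, the ranges that crossed 0 were -3.67 to 0.92 for Wap, -4.81 to 1.35 for Csn1s2a, -0.45 to 0.0087 for Pdcd1, -0.090 to 0.59 for Cd4, -0.094 to 0.32 for Gzmb and -0.11 to 0.092 for Cd274. They were -0.031 to 0.096 for Tifa, -0.011 to 0.10 for Tifab, -0.16 to 0.059 for Klrb1b and -0.074 to 0.038 for Gna15. The cause was not tested.

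With 8 libraries per group the median half-width of the 95% interval was 0.45. The interval lay inside -1 and 1 for 26 of 26 proliferation genes, 2 of 22 T cell identity genes and 0 of 16 B cell genes. Young anti-PD-L1 shares few batches with the old groups, so the difference between ages rests on the fitted batch terms.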
